A study of Mus musculus with 6 samples.

Results

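The core genes of planar cell polarity were followed in organoids of the mouse esophagus and stomach, small 3-dimensional epithelial cultures grown in a gel from tissue stem cells. The set held 10 genes, Vangl1, Vangl2, Celsr1, Celsr2, Celsr3, Prickle1, Prickle2, Ptk7, Ror2 and Scrib, which were taken by name from the 34298 gene names on the array and were measured by 14 of its 55681 probes. Expression was read on 6 single-color Agilent arrays, 3 of esophagus organoids and 3 of stomach organoids, both from mice 1, 2 and 4 at passage 0. Organoids were harvested on day 8, except those of the stomach of mouse 4, which were harvested on day 7. All arrays are labelled as controls, and genotype, strain, sex and age are not given for these mice in the labels. Per the methods, the study's wild-type animals were female C57BL/6 mice, and stomach glands came from the corpus.

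Per the culture methods, both media contained EGF, noggin, FGF-10, nicotinamide, N-acetyl-L-cysteine and an inhibitor of the TGF-β receptor kinase. They also contained the ROCK inhibitor Y-27632, which blocks a kinase that acts downstream of planar polarity signals. In the same methods, stomach organoids also received gastrin and conditioned medium with WNT3A and R-spondin1, whereas esophagus organoids received Forskolin and none of these. Tissue and medium therefore cannot be told apart in any comparison here. The sample titles name no medium, and the paper also grew mouse esophagus organoids with WNT3A and R-spondin1. The labels give the 2 cultures of a pair the same mouse number, and the mouse was tested as a block where this changed a call.

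Planar cell polarity aligns cells within the plane of an epithelium. Celsr cadherins join neighboring cells, and complexes with Vangl and Prickle settle on one side of each cell while complexes with Frizzled and Dishevelled settle on the other, feeding signals into ROCK and JNK kinases that shape the cytoskeleton. In the stratified epithelium of the skin the system is known for orienting hair follicles, and Ror2 and Ptk7 are receptors through which WNT ligands of the β-catenin independent kind act.

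At a limma adjusted p under 0.05, 6 of the 10 genes were higher in esophagus organoids, namely Vangl1, Vangl2, Celsr1, Celsr2, Ptk7 and Scrib, with differences of 0.61 to 2.63 on the log2 scale. Only Ror2 was higher in stomach organoids, and Celsr3, Prickle1 and Prickle2 did not pass. Over all gene names, 7.15% were called in the direction of the esophagus and 7.7% in that of the stomach, and these shares were 12.8% and 13.9% among genes well above background on every array of a tissue. By probe, 10 of the 14 were called for the esophagus and 1 for the stomach, against 5.94% and 6.22% of all probes. In the same 6 genes the 3 esophagus arrays lay above the 3 stomach arrays, and in Ror2 below them, a separation found in 24.3% and 21.3% of the genes well above background in a tissue. The median difference over the 10 genes was 0.65, against 0.03 over all gene names. Of the 10 genes, 8 had signal well above background throughout one tissue or both, and Celsr3 and Prickle2 did not. In bulk cultures such as these, fewer cells of a type and less RNA per cell cannot be told apart.

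**Figure D1:**
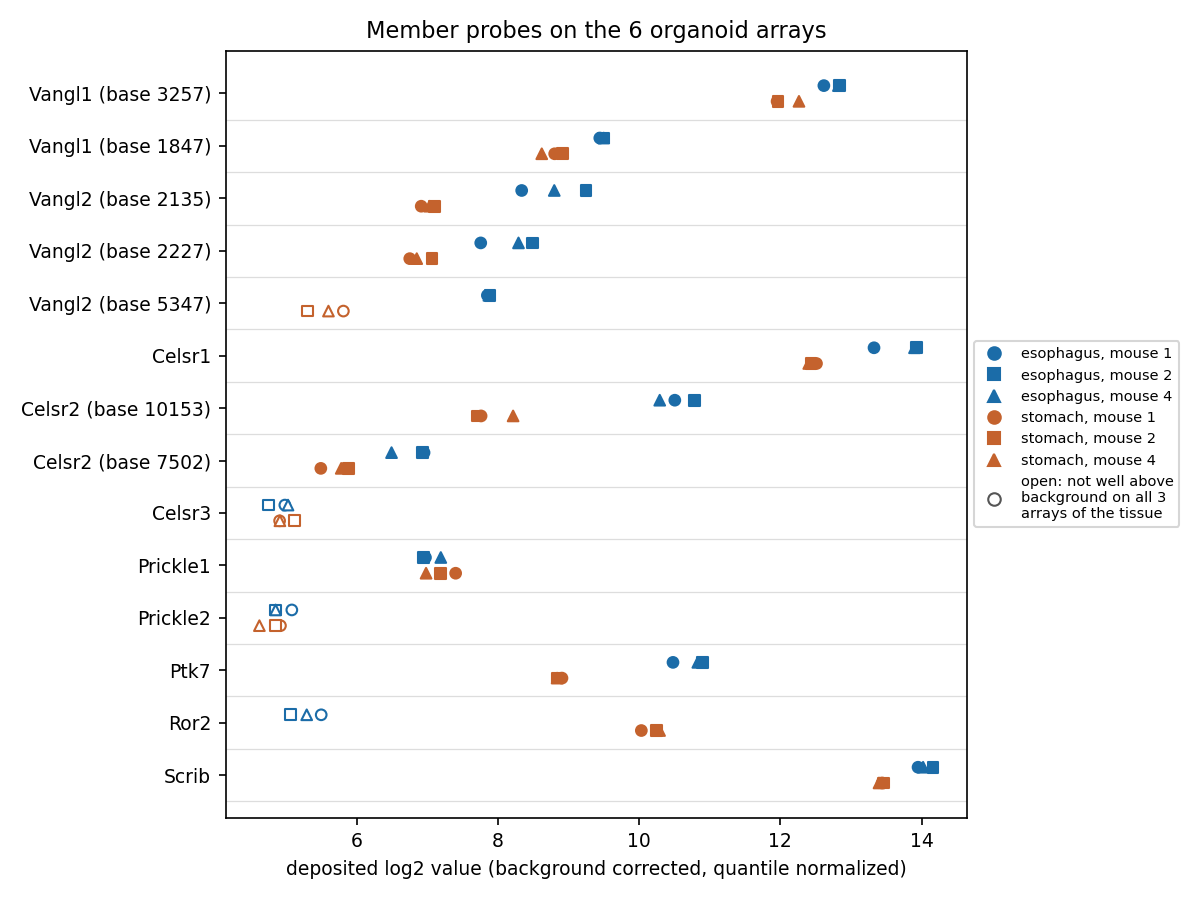
Deposited log2 value of each of the 14 probes (x axis) on the 6 arrays, with esophagus in blue, stomach in orange, a symbol for each mouse and open symbols where a probe was not well above background on all 3 arrays of that tissue. The base in brackets is the position of the probe on its transcript. Blue lies to the right of orange for 10 probes, and Ror2 sits at 10.03 to 10.29 in the stomach and 5.07 to 5.50 in the esophagus.

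The probes are 60 bases long, and a stretch of 30 bases is shown for the genes in which probes of one gene differed most or in which the tissues differed most, each 5′ to 3′ on the transcript strand. All positions are those of the array files, on mm9. In Celsr2 the capitals mark AATAAA, the common polyadenylation signal, and the other probes carry no capitals.
Vangl2, base 2227, chr1:173934502-173934561: tctcccctcttcctcagtttttcccatctg
Vangl2, base 5347, chr1:173931382-173931441: cttcttgaatctcttccaagtgagattgta
Celsr2, base 10153, chr3:108194096-108194155: gagcaggtgtagAATAAAggctcgaggagg
Celsr2, base 7502, chr3:108198512-108198571: tccggaaggctatgggaaccccgacttctg
Ror2, base 3801, chr13:53204795-53204854: tgtttcctgggtttagaatgttcaaaagga
Ptk7, base 3951, chr17:46701644-46701703: gcagatgaacaagagcgtttgggagctttt
All 6 read from the minus strand. The brightest Vangl2 probe, at base 2135, holds a stretch of low complexity, so the values of its 2 other probes are given beside it.

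Vangl1 and Vangl2 are multi-pass membrane proteins that recruit Prickle. The brightest Vangl2 probe read 8.34, 9.25 and 8.80 in the esophagus of mice 1, 2 and 4, and 6.92, 7.10 and 7.03 in the stomach. All esophagus arrays were above all stomach arrays, and the mean difference was 1.78 (standard error 0.23, limma adjusted p = 0.00195), or 3.43-fold. Its neighbor at base 2227 read 7.76, 8.49 and 8.29 against 6.75, 7.07 and 6.85, a difference of 1.29 (standard error 0.21, limma adjusted p = 0.0065). The probe far downstream at base 5347 was the most even within the esophagus, at 7.85, 7.89 and 7.87, and read 5.81, 5.30 and 5.60 in the stomach, where 2 of 3 arrays were well above background. Its difference of 2.30 (standard error 0.17, limma adjusted p = 8.0e-05) was the largest of the 3 probes. All 3 Vangl2 probes separated the tissues in the same direction, with the low-complexity probe lying between the other two in size.

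Vangl1, the paralog of Vangl2, differed less. Its brightest probe, at base 3257 on chr3:101960720-101960779, read 12.62, 12.83 and 12.82 in the esophagus and 11.95, 11.97 and 12.26 in the stomach, a difference of 0.70 (standard error 0.16, limma adjusted p = 0.0261) or 1.62-fold. The second probe, at base 1847 on chr3:101962130-101962189, read 9.44, 9.49 and 9.50 against 8.81, 8.91 and 8.62, again a difference of 0.70 (standard error 0.14, limma adjusted p = 0.0175). The size was thus the same on both probes and the tissues did not overlap on either. With the mouse as a replicate block the adjusted p of these 2 probes was 0.0504 and 0.0499, so the brightest no longer passed. It also fell short without esophagus replicate 2 (adjusted p = 0.0874), esophagus replicate 4 (0.0665), stomach replicate 1 (0.116) or stomach replicate 2 (0.107).

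The Celsr genes encode large atypical cadherins that hold the polarity complexes together across cell contacts. Celsr1, on chr15:85729381-85729440, read 13.33, 13.93 and 13.90 in the esophagus and 12.51, 12.43 and 12.40 in the stomach. All esophagus arrays were higher, by 1.27 on average (standard error 0.19, limma adjusted p = 0.00419) or 2.41-fold, and mouse 1 showed the smallest gap, 0.81, against 1.49 in mouse 2 and 1.5 in mouse 4.

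Celsr2 showed, by its brightest probe, the largest difference among the genes higher in the esophagus, whereas the average of its probes gave 1.85, just below the 1.88 of Ptk7. Its brightest probe, the one with AATAAA at base 10153, read 10.51, 10.78 and 10.29 in the esophagus and 7.76, 7.71 and 8.22 in the stomach, a difference of 2.63 (standard error 0.20, limma adjusted p = 0.000105) or 6.20-fold. The probe at base 7502 was dim in both tissues, at 6.96, 6.93 and 6.50 against 5.49, 5.89 and 5.78, and its difference was 1.07 (standard error 0.19, limma adjusted p = 0.00845). Both probes had the 3 esophagus arrays on top, but they disagreed in size. On background-subtracted signal scaled to the 75th percentile the difference of the dim probe was 1.71 and that of the bright one 2.79, and with an offset of 50 they were 0.76 and 2.43. The reason for the disagreement was not tested.

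Celsr3, known chiefly from neurons, had no array of the 6 well above background. It read 4.99, 4.76 and 5.03 in the esophagus and 4.91, 5.12 and 4.92 in the stomach, and the tissues overlapped (difference -0.06, standard error 0.15, limma adjusted p = 0.875).

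Prickle proteins are cytoplasmic partners of Vangl with LIM domains. Prickle1 was well above background on all 6 arrays, at 6.98, 6.95 and 7.19 in the esophagus and 7.40, 7.19 and 6.99 in the stomach. The tissues overlapped, and the difference of -0.15 (standard error 0.17, limma adjusted p = 0.664) was smaller than the spread between stomach arrays (SD 0.21, n = 3). Prickle2 read 5.08, 4.85 and 4.85 against 4.92, 4.85 and 4.63, with no array well above background (difference 0.13, standard error 0.16, limma adjusted p = 0.700). Prickle1 was therefore the one Prickle gene among the 10 with a measurable signal, and no difference between tissues was detected in it.

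Ptk7 is a receptor-like protein whose kinase domain is inactive. It read 10.48, 10.90 and 10.83 in the esophagus and 8.91, 8.84 and 8.84 in the stomach. The stomach arrays lay within an SD of 0.04 and the esophagus arrays stood above them by 1.88 (standard error 0.16, limma adjusted p = 0.000197), or 3.67-fold.

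Ror2, a receptor tyrosine kinase that binds Wnt5a, ran the other way. In the stomach it read 10.03, 10.25 and 10.29, and in the esophagus 5.50, 5.07 and 5.30, where no array was well above background. Stomach organoids therefore had at least 29.5-fold more signal, a bound set by the lowest signal that counted as well above background on each esophagus array or by the probe itself, whichever was higher. The fitted difference was -4.90 (standard error 0.17, limma adjusted p = 1.26e-06), the largest of the 10 genes in either direction. Because the esophagus level lies at background, this fitted value is no measure of size, and it ran from -4.01 to -7.15 over the alternatives tried.

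Scrib encodes a scaffold of the basolateral membrane that binds Vangl2 and also sets apical-basal polarity. On chr15:75877616-75877675 it read 13.95, 14.16 and 14.02 in the esophagus and 13.44, 13.46 and 13.40 in the stomach, without overlap. The difference was 0.61 (standard error 0.14, limma adjusted p = 0.0258), or 1.53-fold, the smallest of the called genes. With the mouse as a replicate block the adjusted p was 0.0668. It passed without esophagus replicate 1, and fell short without esophagus replicate 2 (adjusted p = 0.0890), esophagus replicate 4 (0.0544), stomach replicate 1 (0.0987), stomach replicate 2 (0.0851) or stomach replicate 4 (0.0553).

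**Figure D2:**
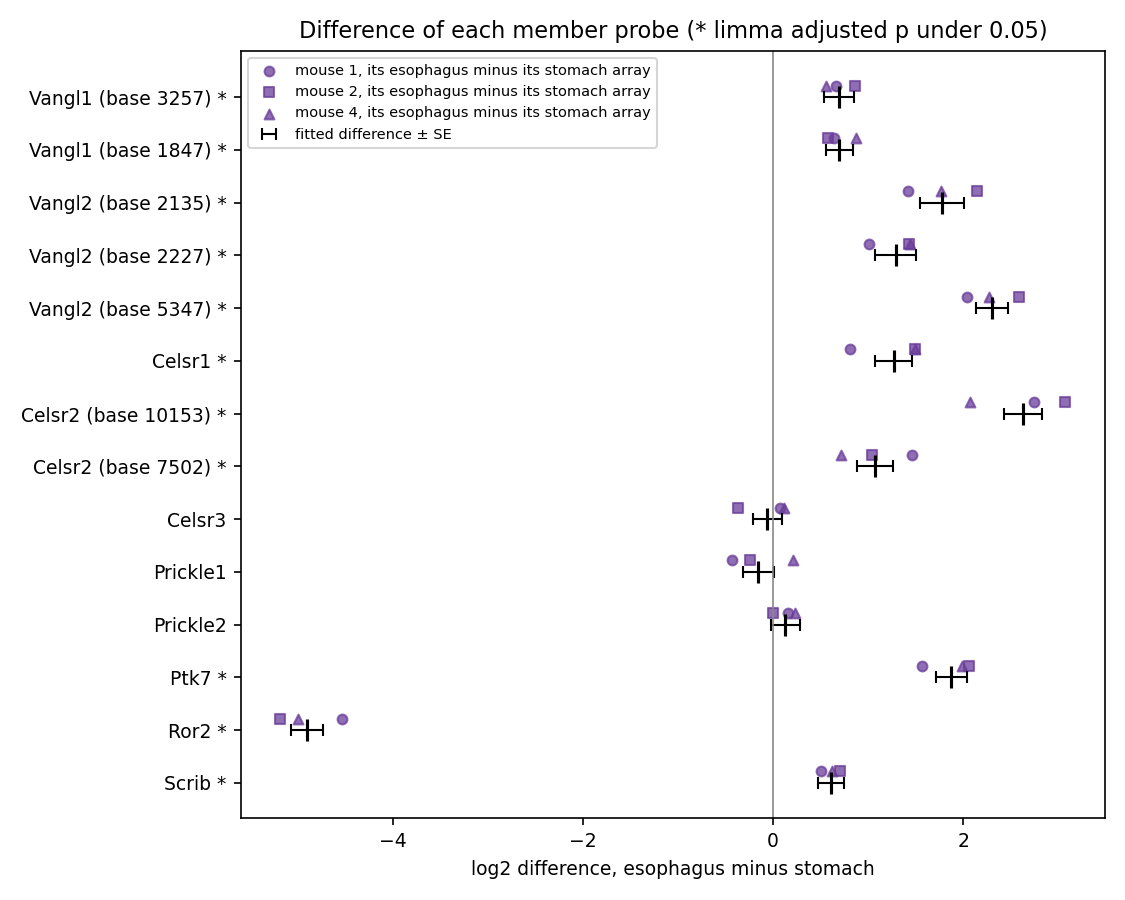
Log2 difference, esophagus minus stomach, of each of the 14 probes (black, fitted difference ± SE) with the difference within each mouse (purple symbols). All 3 mice lie right of 0 for the 10 probes higher in the esophagus and left of 0 for Ror2, whose esophagus level is at background, while the mice fall on both sides for Celsr3 and Prickle1.

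The calls of Vangl2, Celsr1, Celsr2, Ptk7 and Ror2 held under all 17 alternatives tried for the brightest probe of each, with adjusted p up to 0.0252 for Celsr1, 0.0155 for Vangl2, 0.00236 for Ptk7, 0.00148 for Celsr2 and 6.56e-05 for Ror2. Vangl1 passed in 9 of the 17 and Scrib in 8. The 6 genes called higher in the esophagus became 4 with the mouse as a block, with the slide as a block, on the 75th percentile scale and under a 2-fold threshold. As single arrays were left out they became 4 without esophagus replicate 2 or 4 or stomach replicate 1 or 2, 5 without stomach replicate 4 and 6 without esophagus replicate 1.

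**Figure D3:**
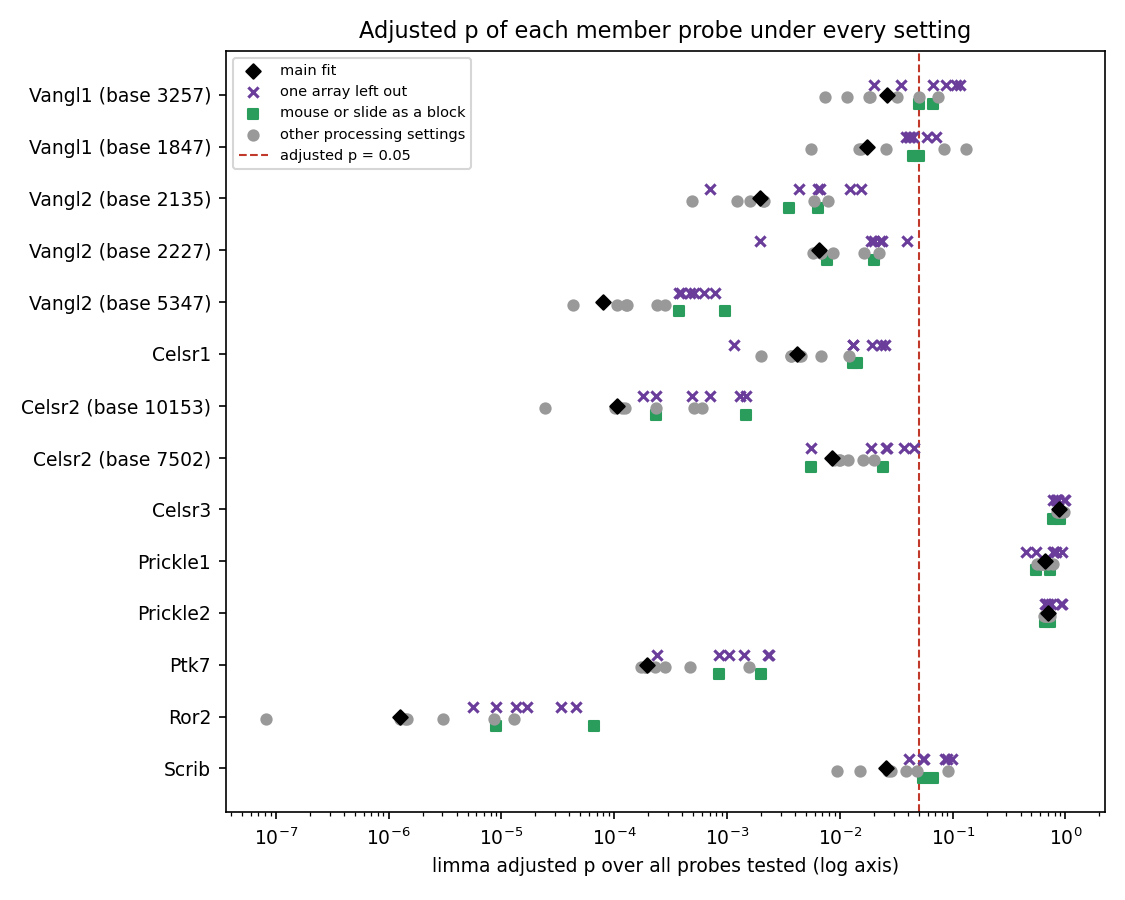
Limma adjusted p (log axis) of each of the 14 probes in the fit reported here (black diamond), with each array left out (purple crosses), with the mouse or slide as a block (green squares) and under other processing settings (gray). The dashed line is 0.05. Vangl1 and Scrib scatter across the line, and the other called probes stay left of it.

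Within the esophagus, the arrays were not equally high. Mouse 1 was the lowest of the 3 esophagus arrays for 8 of the 10 probes called higher there, mouse 4 for 2 and mouse 2 for 0, a count made after the values were seen. Over the 2451 genes called higher in the esophagus and measured on every array, mouse 1 was lowest in 32.6%, mouse 2 in 27.9% and mouse 4 in 39.5%. The esophagus array of mouse 1 was also the lowest for all 4 cell division markers. Mki67 read 11.95 there against 13.48 and 13.77 in mice 2 and 4, and Stmn1 12.68 against 13.97 and 14.40. Whether this bears on the polarity genes was not tested. Without this array all 10 probes were still called higher in the esophagus.

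Paralogs of a family were compared within arrays, by their brightest probes. The value of Vangl2 minus Vangl1, taken on each array, averaged -3.96 over esophagus arrays and -5.04 over stomach arrays, so Vangl2 differed between tissues by 1.08 more than Vangl1. For Celsr2 minus Celsr1 the values were -3.19 and -4.55, so Celsr2 differed by 1.36 more than Celsr1, but this rests on the brightest Celsr2 probe, since the difference of the other, 1.07, was below the 1.27 of Celsr1. In these 2 pairs the tissues did not overlap, and the exact two-sided permutation p was 0.1 in each, the smallest that 3 arrays against 3 can give (0.125 adjusted over the 5 pairs compared), so no pair passed. Celsr3 relative to Celsr1 and to Celsr2 gave differences of -1.33 and -2.69 with the same p, and since Celsr3 had no signal above background these values follow the partner. Prickle2, equally at background, gave 0.28 relative to Prickle1 (exact p = 0.2, adjusted 0.2), so that value is not read.

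The promoters of 7 of the 10 genes were matched by symbol in RefSeq sequences on GRCm38.p6, a newer build than that of the probe positions. The 250 bases before the start are shown for Vangl2, Ptk7 and Ror2, since Vangl2 and Ptk7 were higher in one tissue and Ror2 in the other. Short motifs were searched on both strands. TCF and LEF factors, through which β-catenin acts, were stood for by the letters CTTTGA. For GATA factors the search used AGATAA, and for the TEAD factors of the Hippo pathway it used GGAATG. The AP-1 factors were represented by the letters TGACTCA, and SP and KLF factors were given the letters GGGCGG, and every match is in capitals.
Vangl2, chr1:172027296-172027545, minus strand: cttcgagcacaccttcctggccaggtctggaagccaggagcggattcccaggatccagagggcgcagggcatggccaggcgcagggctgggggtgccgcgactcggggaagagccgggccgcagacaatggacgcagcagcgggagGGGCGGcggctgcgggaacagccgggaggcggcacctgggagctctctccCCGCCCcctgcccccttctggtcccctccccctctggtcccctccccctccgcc
Ptk7, chr17:46629505-46629754, minus strand: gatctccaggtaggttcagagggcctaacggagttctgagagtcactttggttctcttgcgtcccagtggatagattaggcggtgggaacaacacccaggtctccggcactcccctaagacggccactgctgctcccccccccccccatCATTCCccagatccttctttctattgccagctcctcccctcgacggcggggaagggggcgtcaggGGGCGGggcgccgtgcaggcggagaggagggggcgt
Ror2, chr13:53286125-53286374, minus strand: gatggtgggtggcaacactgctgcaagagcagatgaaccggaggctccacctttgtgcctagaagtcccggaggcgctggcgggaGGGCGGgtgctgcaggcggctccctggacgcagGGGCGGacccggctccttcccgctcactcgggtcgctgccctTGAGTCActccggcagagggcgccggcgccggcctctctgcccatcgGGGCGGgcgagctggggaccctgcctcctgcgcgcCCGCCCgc
Ror2 held 4 matches to the SP and KLF motif and 1 to that of AP-1. Vangl2 held 2 matches to the SP and KLF motif, and Ptk7 held 1 to it and 1 to the TEAD motif. In the same window of Celsr2 there was no match to any motif searched. Neither the TCF and LEF motif nor the GATA motif was in any of these 4 windows. The 7 matched genes had 11 windows in all, and those of Celsr3, Prickle1 and Prickle2 are not shown. Among the latter, 1 Prickle2 window held a TCF and LEF match, at position -164. Over all 32851 promoters cut to this length, the SP and KLF motif was found in 32.7%, the TCF and LEF motif in 13.8%, the TEAD motif in 12.6%, the GATA motif in 9.99% and the AP-1 motif in 4.46%. GC made up 73.6% of the Vangl2 window, 64% of Ptk7, 73.2% of Ror2 and 75.2% of Celsr2, against a median of 52.4%. A match describes these letters and is not evidence of binding, and a missing match says only that the letters are not in this window.

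Genes lying beside the members were also read. Within 60000 bases of a member probe lay 24 other names by their brightest probe, 21 of them named genes and the rest unnamed probes or intervals. Of the 24, 3 were called for the esophagus, 2 for the stomach and 19 not at all, counts too small to set against the 7.15% and 7.7% of all gene names. One of the 2 stomach calls was an unnamed probe near Vangl2. Sort1, a sorting receptor 29806 bases from Celsr2, read 9.63, 9.55 and 8.29 in the esophagus and 12.69, 12.58 and 12.54 in the stomach, a difference of -3.45 (standard error 0.34, limma adjusted p = 0.000431) opposite to that of Celsr2. Beside Scrib, K230010J24Rik (difference 2.09, limma adjusted p = 0.00176) and Fam83h (difference 1.2, limma adjusted p = 0.00213) were higher in the esophagus. Beside Vangl1, Casq2, with no stomach array well above background, gave at least 2.27-fold more signal in the esophagus (limma adjusted p = 0.00517). The probes of Celsr1 and Trmu lie 1949 bases apart, and Trmu overlapped between tissues (difference -0.38, limma adjusted p = 0.323). No gene had its brightest probe within this distance of Ror2 or Prickle2.

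**Figure D4:**
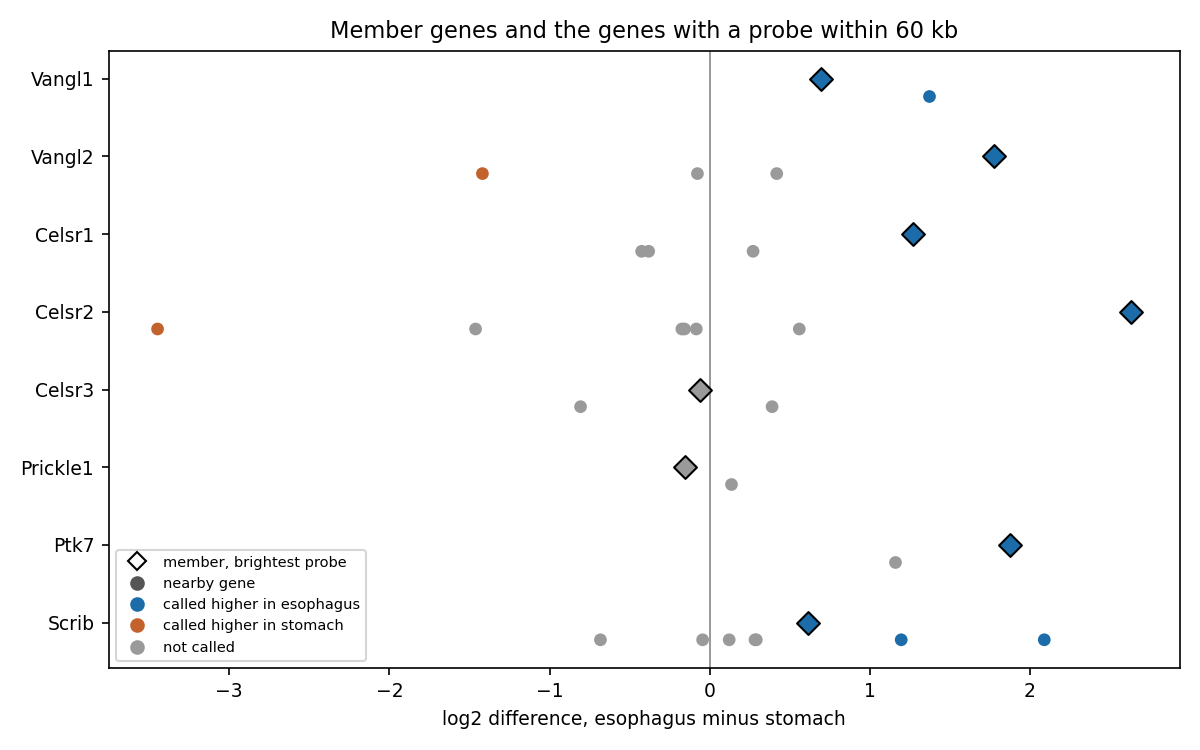
Log2 difference, esophagus minus stomach, of each member gene with neighbors (diamonds) and of the genes whose brightest probe lies within 60000 bases (circles), colored by call. Sort1, at -3.45, lies opposite Celsr2, at 2.63.

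The other genes of the pathway were taken from 8 lists of 53 genes in all. Of these, 12 were called for the esophagus, 4 for the stomach and 37 for neither, beside the 7.15% and 7.7% of all gene names given above, and their median difference was 0.17, again against 0.03 over all gene names.

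Among 7 WNT ligands linked to planar polarity, 3 were called, all of them higher in esophagus organoids. Wnt4 stood out, at 13.65, 14.02 and 14.01 in the esophagus and 7.18, 6.87 and 6.84 in the stomach, a difference of 6.93 (standard error 0.17, limma adjusted p = 3.1e-07). Wnt7b differed by 1.16 (limma adjusted p = 0.0296, and 0.0536 with the mouse as a replicate block). Wnt5b had no stomach array well above background and gave at least 2.09-fold more signal in the esophagus (limma adjusted p = 0.00679). Wnt5a, the ligand of Ror2, read 9.60, 8.11 and 9.01 in the esophagus and 8.57, 8.39 and 7.85 in the stomach, so the tissues overlapped (difference 0.64, limma adjusted p = 0.369). The ligand thus gave signal on all arrays of both tissues, while its receptor Ror2 was above background in the stomach only.

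Of 7 receptors and co-receptors, 3 were called, each higher in esophagus organoids. Fzd2 differed by 2.37 (limma adjusted p = 0.00077), Fzd6, the Frizzled gene known from hair orientation, by 1.72 (limma adjusted p = 0.0268), and the glypican Gpc4 by 0.95 (limma adjusted p = 0.00566). Ror1, the paralog of Ror2, had no array well above background. The direction of this list depends on which Frizzled genes it holds. Of those outside it that the Reactome pathway contains, Fzd1 was higher in the esophagus (difference 1.78, limma adjusted p = 0.00335), but Fzd4 (difference -2.28, limma adjusted p = 5.51e-05) and Fzd5 (difference -1.58, limma adjusted p = 0.00283) were higher in the stomach. These genes are named after their values were seen and were not run under the alternatives. In the cytoplasmic core, Dvl2 (difference 0.96, limma adjusted p = 0.00461) and Prickle3 (difference 1.17, limma adjusted p = 0.0169) were higher in the esophagus among 6 genes, and the other 4 were not called. Prickle3 read 10.43, 10.48 and 10.65 in the esophagus and 9.69, 9.53 and 8.81 in the stomach, and so was the one Prickle gene measured here that was called.

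Downstream, 9 of 11 cytoskeletal effectors were not called, among them Rhoa, Cdc42, Rock1 and Rock2. The GTPase Rac1 was higher in the esophagus (difference 1.08, limma adjusted p = 0.00767) and the JNK kinase Mapk9 in the stomach (difference -0.79, limma adjusted p = 0.0145). In both genes a second probe with signal on all 6 arrays was not called (Rac1 difference 0.52, limma adjusted p = 0.105, and Mapk9 difference -0.13, limma adjusted p = 0.803). The average of both probes was still called for Rac1 (difference 0.80, limma adjusted p = 0.0133) but not for Mapk9 (difference -0.46, limma adjusted p = 0.0538). Of 3 ciliary effectors, Fuz was higher in the stomach, at 10.27, 10.91 and 10.36 against 8.83, 8.93 and 9.07 (difference -1.57, limma adjusted p = 0.00171). In the parallel Fat and Dachsous system, 2 genes were called for the esophagus and 1 for the stomach. Fjx1, a Golgi kinase of the Four-jointed family that modifies this system in flies, gave at least 91.3-fold more signal in the esophagus (limma adjusted p = 3.24e-06), with no stomach array well above background, and the cadherin Fat2 was 28.9-fold higher (difference 4.85, limma adjusted p = 3.27e-06). Dchs2 was called higher in the stomach by its brightest probe, which was well above background on 2 stomach arrays and on no esophagus array (at least 1.42-fold, limma adjusted p = 0.0284), but its 2 other probes, with no array well above background, read 0.22 and 0.27 the other way, and the average of the 3 was not called (adjusted p = 0.595). In that list the other 4 genes were not called.

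Scrib's 6 partners gave 1 call, Dlg5, a scaffold, which was higher in the stomach (difference -0.94, limma adjusted p = 0.0182), opposite to Scrib. Of 6 genes for trafficking and turnover, the membrane protease Mmp14, known to cleave Ptk7, was higher in the esophagus as Ptk7 was (difference 2.48, limma adjusted p = 7.89e-05), and the rest were not called, Sec24b among them (difference 0.52, limma adjusted p = 0.0539).

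**Figure D5:**
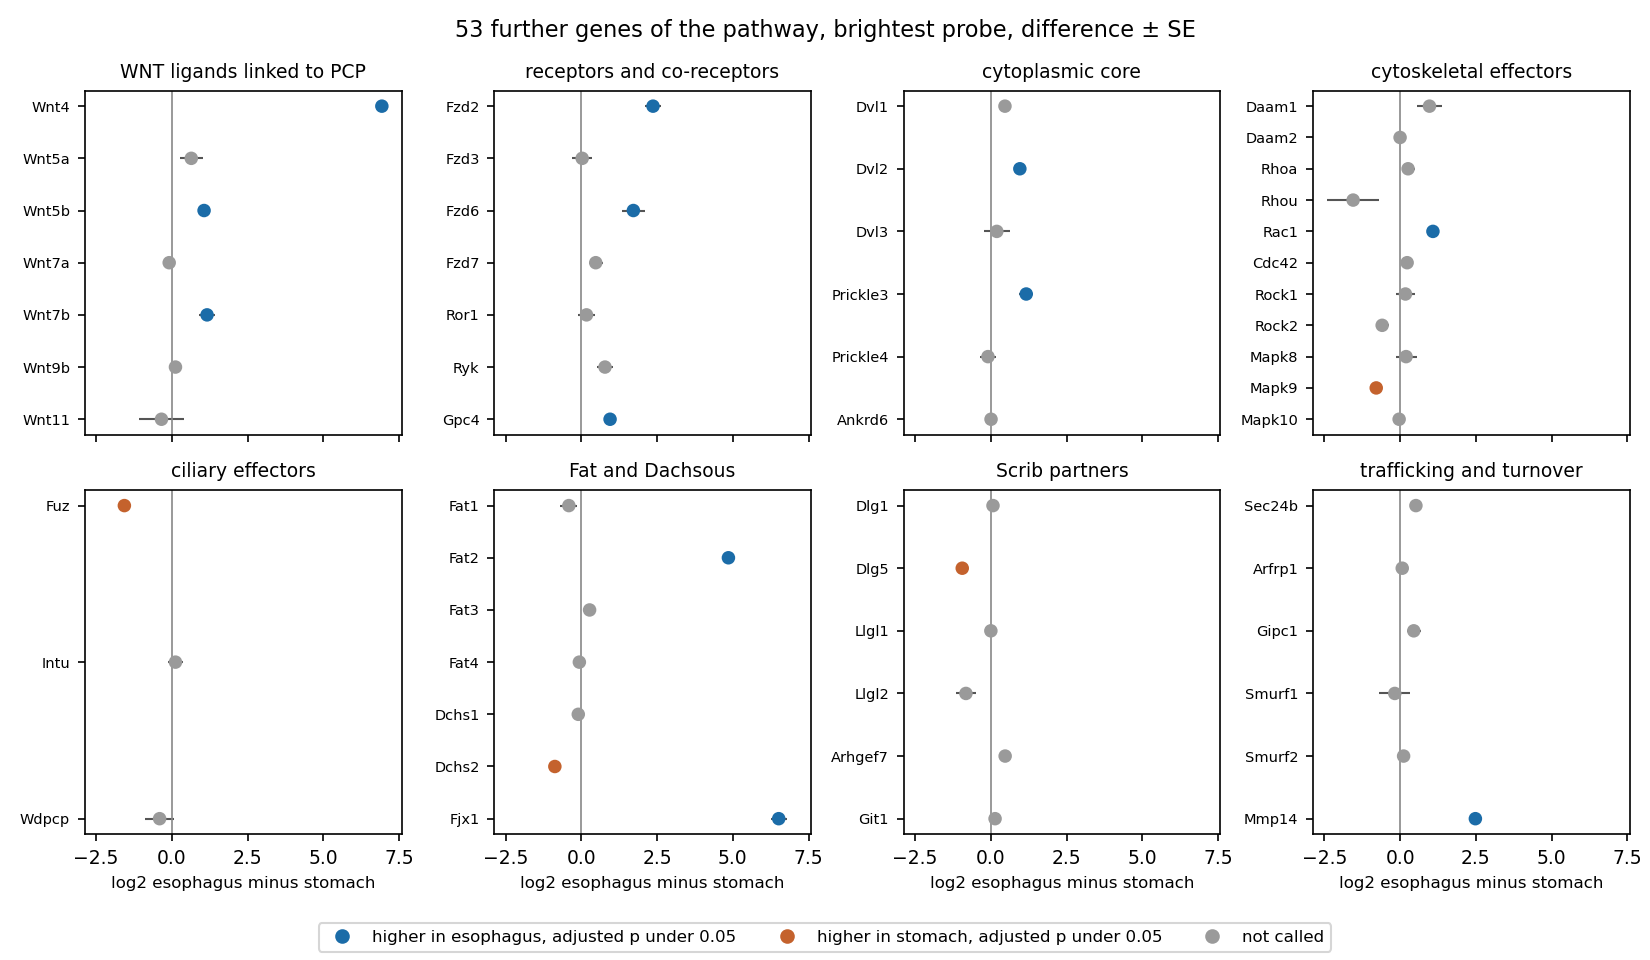
Log2 difference, esophagus minus stomach, with its SE for the 53 further genes of the pathway in 8 lists, with genes higher in the esophagus in blue, in the stomach in orange and not called in gray. Wnt4, Fjx1 and Fat2 lie farthest right, where the point of Fjx1 shows its fitted difference, which ran from 5.52 to 8.72 over the settings with no stomach array well above background, and Fuz at -1.57 lies farthest left of the called genes.

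Several of these calls were lost when 1 array was left out. Without esophagus replicate 2 this held for Wnt7b, Fzd6, Prickle3, Mapk9, Dchs2 and Dlg5 (adjusted p of 0.0510 to 0.0958), and without stomach replicate 1 for Wnt7b, Fzd6, Mapk9, Dchs2 and Dlg5 (0.0684 to 0.120). Stomach replicate 2 left out took away Wnt7b, Fzd6, Mapk9 and Dchs2 (0.0544 to 0.115), esophagus replicate 4 took Wnt7b, Fzd6 and Dchs2 (0.0593 to 0.0751), stomach replicate 4 took Wnt7b (0.0740) and esophagus replicate 1 took Dlg5 (0.0501). On the 75th percentile scale, Gpc4 (adjusted p = 0.0628), Dvl2 (0.0528), Mapk9 (0.262) and Dlg5 (0.212) did not pass. Their differences on that scale were 1.02, 1.06, -0.64 and -0.74, against 0.95, 0.96, -0.79 and -0.94 in the main fit. That scaling also moved the median difference of all probes from 0.02 to 0.19, so the 2 sets of values are not directly comparable. With an offset of 50, Wnt7b (adjusted p = 0.0727), Fzd6 (0.0581) and Dchs2 (0.0865) did not pass, at differences of 0.80, 1.65 and -0.66. The second probes of Fzd2 and Gpc4 had no array well above background and give no check of these calls, and that of Dvl2 was above it on 2 arrays of each tissue (difference 0.13, not called).

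The planar cell polarity pathway of the Reactome collection is dominated by other genes. Of its 78 genes, 76 were measured, and only 4 of them are among the 10 members. The 44 proteasome subunits in it gave 6 calls in the esophagus and 1 in the stomach (median difference 0.41), the 6 clathrin and AP-2 subunits 0 and 1, and the remaining 26 genes 6 and 4 (median difference 0.10). Over all genes well above background in a tissue, the shares called were the 12.8% and 13.9% given above, and nothing is read from these counts.

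Genes whose values ran most like a member's over the 6 arrays were sought by Pearson's r among 15633 gene names well above background on every array. This r mainly follows the gap between tissues, which the arrays share. For Celsr2 the nearest were Sult2b1 and Pcbp3 (r of 0.999 for each), for Ptk7 Trmt61a (0.9995) and Hr (0.999), for Celsr1 Casp14 and Ehd2 (0.998 each), for Vangl2 Sfr1 (0.998) and Hist3h2a (0.997), for Vangl1 Mta2 and Cdca4 (0.999 each), and for Scrib Slc8b1 (0.998) and Gm20878 (0.997). Prickle1, which did not separate the tissues, was followed less closely, by Gm9725 (0.987) and Gm6225 (0.986). From 419 to 743 gene names had an r over 0.95 with each of the 6 called genes, against 19 with Prickle1.

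The labelled tissues were checked by markers. Of 6 squamous markers, 5 were higher in the esophagus, Krt5 by 11.93, while all 8 columnar markers were higher in the stomach. The remaining squamous marker, Trp63, was lower in the esophagus by its brightest probe (difference -1.22). Its other probes are not reported here, so this value does not speak for the gene as a whole. By staining, the paper found P63 protein in esophagus organoids. Of 7 fibroblast markers, 0 had signal above background throughout a tissue and 0 were called, and the log2 of their summed signal was 7.62 to 7.84 in the esophagus and 7.85 to 7.94 in the stomach. Smooth muscle, immune and endothelial lists gave 0 calls, and Ptprc, Myh11, Des and Cdh5 had no array well above background. Other genes of these lists had signal on all 6 arrays, namely Tagln, Cd3e, Pecam1, Kdr and Cd68, which read 11.80 to 14.77 in the esophagus and 11.04 to 12.36 in the stomach (difference 1.63, limma adjusted p = 0.211). Of the neuron and glia list, Tubb3 (difference 4.37) and Elavl4 (difference 0.92) were higher in the esophagus, while Sox10 was not above background on any array. The part of these genes in the results above was not tested. All 4 cell division markers had signal on all arrays and none was called. From 45.5% to 51.1% of spots were well above background on each array, and no spot was saturated.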

How the data were processed

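Total RNA of organoids was labelled with Cy3 and hybridized to Agilent mouse arrays. The authors read the spots with Agilent Feature Extraction (version 11.5.1.1), which gave the intensity of each spot with marks for outliers and for signal well above background, and deposited log2 values that had been background corrected and quantile normalized. The deposited log2 values lay within 0.0726 of median spot signals corrected with normexp at an offset of 15 and quantile normalized. The medians of the deposited values were 5.24 to 5.25 on each array. A positive offset shrinks differences of dim probes. Empty cells were spots marked as outliers.

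Control spots were left out and spots of a probe averaged. limma (version 3.58.1, R version 4.3.3) compared 3 esophagus with 3 stomach arrays without a block, and p-values were adjusted over 55681 probes with the Benjamini-Hochberg method. A gene stands by its brightest probe. Where no array of a tissue was above background, a gene has only a bound there. The members and lists were chosen with earlier results of these data known. All members were named, and of each list the called genes up to the 3 with the largest difference. The labels give the arrays of both tissues the same mouse numbers, which were taken as the pairing. Deviations of same-numbered arrays from the tissue means correlated with r of 0.02, 0.01 and -0.01, against -0.07 to 0.04 between mice. Alternatives were other background corrections and scaling, outliers kept, a filter on dim probes, another variance model, the mouse or slide as a block, each array left out, other thresholds and the average of probes. Sequences are shown for 6 of the 14 probes, and the others are not reported here.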

Additional observations from a re-analysis of the deposited data

How the results depend on the processing

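Of the 10 genes, the direction of every called gene was kept under each alternative tried. Celsr3, which was not called, changed sign in some. Its difference of -0.06 became 0.040 with mean signals at an offset of 16, 0.019 at an offset of 50, 0.019 on background-subtracted signal scaled to the 75th percentile and 0.040 with outlier-marked spots kept, and ran from -0.11 to 0.025 as single arrays were left out. That scaling moved the median difference of all probes to 0.19, so the 0.019 of Celsr3 lay below it. The number of pathway genes higher in the stomach, 4 in the report, was 2 with the 75th percentile scaling (and that higher in the esophagus 10 in place of 12), 1 under a 2-fold threshold and 1 to 5 as single arrays were left out. In Vangl1 and Scrib the adjusted p on the 75th percentile scale was 0.0738 and 0.0912. Their differences there, 1.01 and 0.90, were not smaller than the 0.70 and 0.61 of the main fit, and the cause of the lost calls was not tested. With the mouse as a replicate block, Vangl1 (adjusted p = 0.0504), Scrib (0.0668) and Wnt7b (0.0536) no longer passed. It changed no other call among the brightest probes of the genes named from these lists. The slide as a block equals leaving out esophagus replicate 4, the one array on the other slide, and no within-slide value exists for that slide. Signal near background limited Celsr3, Prickle2 and the esophagus level of Ror2. Replicates are 3 mice, and with 3 arrays against 3 no single exact test could pass 0.05.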
